A study of Mus musculus with 9 samples.

Results

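Ovaries of PD15 mice were compared with ovaries of PD14 mice, the day on which the first follicular antra are reported in the juvenile ovary against the day before it. The 6 libraries compared, 3 for PD14 and 3 for PD15, belong to a set of 9 that also covers PD16. All mice were untreated females of the Kunming stock, which is outbred, at postnatal day 14, 15 or 16, and no group carries an allele or an agent. Ovary is the labelled tissue, although granulosa cells are named as the source. The libraries of a day are described as independent ovaries, and whether each is from a different mouse is not given in the sources used here, so p-values measure the spread between these libraries. Expression is given as FPKM, the mapped fragments of a gene scaled by its exon length and by the depth of the library. The comparison covered the 15306 of 52025 genes whose mean FPKM was above 1 at PD14 or at PD15, of which 12437 are protein-coding. Values just at this limit were 1.00 for the lowest gene kept and 1.00 for the highest gene left out.

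A growing follicle holds an oocyte inside layers of granulosa cells, with theca cells outside a basement membrane. The theca cells turn cholesterol into androgens, and granulosa cells turn androgens into oestrogen. When the antrum forms, fluid collects between the granulosa cells. The study proposes that this needs sealed junctions, ion gradients and water channels, and that large hydrophilic molecules in the fluid may contribute. The zona pellucida and the maternal proteins of the early embryo are made by the oocyte during the same growth.

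The sequencing depth, read from the FPKM step of a single fragment, was 20.4 to 24.5 M fragments in the PD14 libraries and 23.8 to 28.7 M fragments in the PD15 libraries. Markers of the oocyte, granulosa cells, theca cells, fibroblasts, smooth muscle, endothelium, blood and surface epithelium were all present, so that the libraries hold RNA of whole ovary and not of granulosa cells alone. At PD14 the oocyte genes Zp1, Zp2 and Zp3 lay between 90.7 and 386 FPKM, and the steroidogenic enzyme Hsd3b1 lay between 1460 and 2091 FPKM. Fat cell, skeletal muscle and oviduct markers were mostly below 1 FPKM in all 6 libraries, with 13 of 16, 11 of 15 and 11 of 16 markers at that level. In bulk tissue, fewer cells of a type and less RNA per cell cannot be told apart.

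A total of 71 protein-coding genes differed between the days at an adjusted p under 0.05 (limma with Benjamini-Hochberg adjustment over all 15306 genes), which is 0.571% of those tested. There were 31 rises (0.249%) and 40 falls (0.322%), and in all of these the 3 libraries of PD14 lay wholly on one side of the 3 of PD15. Over all 15306 genes, 0.34% were called higher and 0.346% lower, and 10.4% and 10.3% had the 3 PD15 libraries wholly above or wholly below. Among the protein-coding genes tested, libraries lay wholly apart with PD15 above for 10.1% and with PD15 below for 11.1%. Of the 71, 9 had a mean at or below 1 FPKM on 1 of the days, 3 at PD14 (Retnla, Ube2ql1 and Zfp991) and 6 at PD15 (AC133103.6, AC125149.4, Trim15, Pcdh8, Rprml and Foxl1), and so were tested only through the day on which they were high. With no filter on low values (32701 genes tested), 12 of the 71 remained called, and of these 9 Retnla and AC125149.4 did. Changes were small for most genes, with a median absolute log2 change of 0.084 over protein-coding genes and 34 of them past 1. A further 34 genes of other biotypes were called, 21 higher and 13 lower, among them 14 loci without a biotype and 6 processed pseudogenes. The call count depended on the model and on single libraries. The PD16 libraries help set the variance in the model of all 9, and with the 6 libraries of PD14 and PD15 alone there were 46 calls of all biotypes, 37 of them among the 105. Of 105 genes of all biotypes, 3 remained called without PD15 replicate 1, 7 without PD14 replicate 3 and 9 without PD15 replicate 2, among 3, 7 and 10 calls made in those fits. Without PD14 replicate 1, PD14 replicate 2 or PD15 replicate 3, there were 61, 44 and 52 calls, of which 34, 32 and 33 were among the 105. All 71 protein-coding genes kept their direction in each of these fits. This was fixed in advance, since their PD14 and PD15 libraries lay wholly apart. Only Akr1c19, Eno1b and AC125149.4 were called in every fit without 1 of the 9 libraries, and 6 of the 71 were called in none of them.

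**Figure D1:**
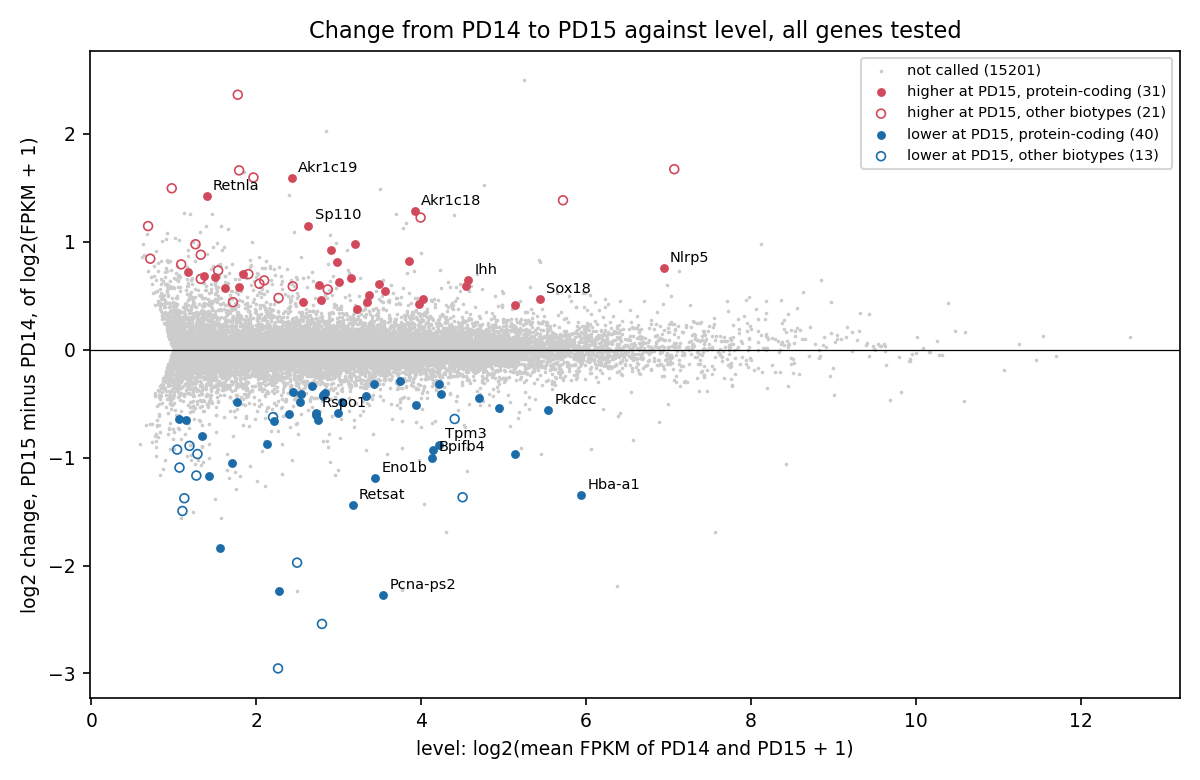
Log2 change from PD14 to PD15 (vertical axis, log2(FPKM + 1) units) against level (horizontal axis, log2 of mean FPKM + 1) for the 15306 genes tested, 1 point a gene. Filled red and blue points are the 31 protein-coding rises and 40 protein-coding falls, open points are called genes of other biotypes, and grey points were not called. Most genes lie close to 0, and called genes are found at low and at middle levels.

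Neighbouring aldo-keto reductase genes were first and in the top 3 of the rises by log2 change. Akr1c18, at chr13:4132615-4150654 on the minus strand (GRCm38, as all positions here), encodes the 20-alpha-hydroxysteroid dehydrogenase that inactivates progesterone. Akr1c19, at chr13:4228700-4252843 on the plus strand, encodes another enzyme of the family. Akr1c19 was at 1.68, 1.72 and 1.59 FPKM in the 3 PD14 libraries and at 5.90, 6.46 and 9.03 FPKM in the 3 PD15 libraries. It was 4.29-fold higher at PD15, with no overlap (log2 change 1.59 ± 0.13 SE, adjusted p = 0.00448, limma). Akr1c18 was at 10.6, 4.73 and 8.95 FPKM at PD14 and at 17.9, 19.7 and 23.2 FPKM at PD15. All PD15 libraries exceeded all PD14 libraries, by 2.51-fold on the means (log2 change 1.28 ± 0.23 SE, adjusted p = 0.0452, limma). The Akr1c18 call was held in 2 of the 9 fits without 1 library, with adjusted p from 0.0343 to 0.128 and log2 changes from 0.98 to 1.49. Of the 11 other alternatives it was held in 4, and it was lost with pseudocounts of 0.1 and 0.5, no filter and the 6 libraries alone, among others. At PD16 neither gene was at its PD15 level, with Akr1c19 at 1.45 ± 0.13 FPKM and Akr1c18 at 2.13 ± 0.37 FPKM (SD, n = 3). Another gene of the family, Akr1c14, which was far more abundant, was at 154 to 201 FPKM at PD14 and at 174 to 199 FPKM at PD15 (log2 change 0.00 ± 0.11 SE). Genes of this family resemble each other, and how the counting shared out fragments that fit more than 1 of them is not given in the sources used here.

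The promoters of both genes are shown because the genes lie in 1 cluster and rose together. They are RefSeq windows of GRCm38.p6 from 250 bases before to 50 bases after the annotated start, at chr13:4150597-4150896 (minus strand) for Akr1c18 and chr13:4233490-4233789 (plus strand) for Akr1c19. The RefSeq start of Akr1c19 lies 5040 bases inside the gene's outer limit in GENCODE M21. Capitals mark matches to AAGGTCA, the binding site of the NR5A nuclear receptors, or to TTCNNNGAA, the site form of STAT5, both searched on both strands.
Akr1c18: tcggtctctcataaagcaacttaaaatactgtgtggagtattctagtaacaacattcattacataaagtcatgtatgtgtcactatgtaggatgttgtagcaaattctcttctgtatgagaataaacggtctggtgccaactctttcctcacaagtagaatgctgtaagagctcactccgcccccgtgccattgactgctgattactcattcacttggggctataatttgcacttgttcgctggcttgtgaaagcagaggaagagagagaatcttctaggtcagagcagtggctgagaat
Akr1c19: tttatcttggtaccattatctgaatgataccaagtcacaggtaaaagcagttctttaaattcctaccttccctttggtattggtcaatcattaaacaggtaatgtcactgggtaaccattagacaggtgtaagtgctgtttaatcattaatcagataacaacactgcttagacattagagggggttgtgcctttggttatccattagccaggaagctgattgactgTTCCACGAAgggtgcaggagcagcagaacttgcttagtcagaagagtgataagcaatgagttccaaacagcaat
The Akr1c19 window holds 1 match, to TTCNNNGAA, and the Akr1c18 window holds no match to these letters. TTCNNNGAA is found in 8.3% and AAGGTCA in 4.72% of the 32851 RefSeq windows. Of the 12 of the 15 largest rises with a window, AAGGTCA is in those of Cst8 and Rln3 and TTCNNNGAA in that of Akr1c19 alone. A match is a description of the sequence.

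Retnla, Sp110, Rln3 and Cst8 were also among the 15 largest rises. Retnla, a secreted resistin-like protein known from alternatively activated macrophages, was at 0.409, 0.623 and 0.246 FPKM at PD14 and at 3.55, 2.81 and 2.15 FPKM at PD15. Its level thus passed 1 FPKM at PD15 alone, with a log2 change of 1.42 ± 0.17 SE and an adjusted p of 0.0142 (limma). Sp110, an interferon-inducible nuclear body protein, was at 2.91, 2.17 and 3.50 FPKM at PD14 and at 8.73, 7.08 and 6.76 FPKM at PD15, 2.63-fold higher (adjusted p = 0.0326). Rln3 encodes relaxin-3, an insulin-family peptide. It was at 9.85, 8.23 and 10.1 FPKM at PD14 and at 18.5, 17.5 and 16.2 FPKM at PD15, with little spread on either day (log2 change 0.83 ± 0.10 SE, adjusted p = 0.0136). Cst8, a cystatin of the reproductive tract, was at 3.78, 4.42 and 4.37 FPKM at PD14 and at 7.87, 9.75 and 8.89 FPKM at PD15, 2.11-fold higher (adjusted p = 0.0371). These 4 genes stood lower at PD16 than at PD15, at 0.69 ± 0.25 FPKM for Retnla, 3.05 ± 0.88 for Sp110, 6.30 ± 0.72 for Rln3 and 5.31 ± 1.39 for Cst8. Of the general leukocyte markers, 5 of 11 tested had a higher mean at PD15, and their summed level overlapped (55.4 to 61.2 FPKM at PD14, 55.9 to 67.2 FPKM at PD15). Lyz2, the lysozyme of macrophages, had the highest change of that list at 9.49, 8.62 and 8.62 FPKM and then 13.2, 13.0 and 15.9 FPKM, without overlap but not called (log2 change 0.60 ± 0.14 SE, adjusted p = 0.109). Csf1r, a defining marker of the list, had the lowest change, at 2.04, 2.04 and 2.01 FPKM and then 1.69, 1.64 and 1.76 FPKM. Its PD15 libraries lay wholly below, and it was not called (log2 change -0.17 ± 0.07 SE, adjusted p = 0.324, limma). Of the 21 tested genes of the interferon response and antigen presentation list, 13 had a higher mean at PD15, with a median of 0.06. In this list 0 were called higher and 1 lower, beside 0.34% and 0.346% over all genes tested. Without PD15 replicate 2 the count with a higher mean was 8 of 21 and the median -0.02. Whether leukocyte number had a part in the Retnla rise was not tested. The calls of Retnla and Rln3 held in 6 of the 9 fits without 1 library and those of Sp110 and Cst8 in 3, with adjusted p up to 0.121.

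Ihh, at chr1:74945315-74951672 on the minus strand, encodes Indian hedgehog, a granulosa cell signal received by theca cells. Ihh was at 19.0, 18.4 and 15.2 FPKM at PD14 and at 32.5, 26.4 and 25.2 FPKM at PD15. Every PD15 library was above every PD14 library, by 1.60-fold on the means (log2 change 0.65 ± 0.11 SE, adjusted p = 0.0463, limma). Leaving out each library in turn kept the call once, with adjusted p from 0.0489 to 0.139. The hedgehog receptor gene Ptch1 and the targets Gli1 and Hhip, all in the theca list, had log2 changes of -0.02, 0.02 and 0.12, and none was called. Perp, a membrane protein of desmosomes, was at 5.69, 4.75 and 4.88 FPKM at PD14 and at 11.9, 8.20 and 13.5 FPKM at PD15, 2.20-fold higher (adjusted p = 0.0446). The Perp call held in 2 of the 9 fits without 1 library, and was lost with no filter and with the 6 libraries alone, among others. Unlike the genes above, Perp was as high at PD16, at 12.3 ± 2.22 FPKM. Lrrc10b was at 5.86 ± 0.33 FPKM at PD14, 9.88 ± 0.66 FPKM at PD15 and 10.9 ± 1.85 FPKM at PD16 (SD, n = 3). Zinc finger gene Zfp991 went from 0.98 ± 0.01 to 2.20 ± 0.48 FPKM and Ube2ql1, of the ubiquitin-conjugating enzyme family, from 0.70 ± 0.15 to 1.81 ± 0.27 FPKM. The uncharacterised 5730507C01Rik was at 1.19 ± 0.36 FPKM at PD14 and 2.46 ± 0.09 FPKM at PD15. Each of these 4 genes was called, Zfp991 and Ube2ql1 after passing the expression limit at PD15 alone, with adjusted p between 0.0368 and 0.0477 and with calls in 1 to 3 of the 9 fits without 1 library.

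**Figure D2:**
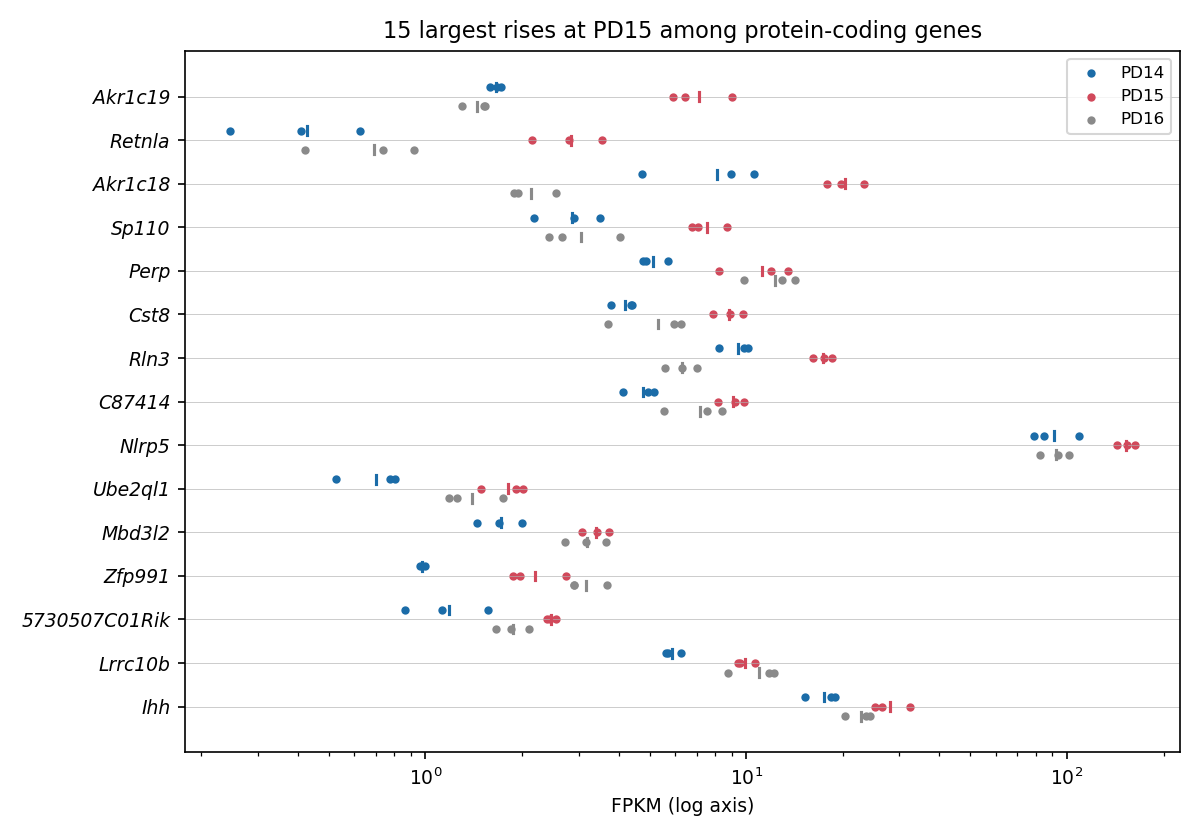
FPKM (horizontal log axis) of the 15 protein-coding genes with the largest rises, in each of the 9 libraries. Points are libraries of PD14 (blue), PD15 (red) and PD16 (grey), and short bars are the mean of a day. The PD15 points lie to the right of the PD14 points for all 15 genes, while at PD16 Akr1c19, Akr1c18 and Rln3 are below their PD14 means and Perp, Lrrc10b and Zfp991 are at or above their PD15 means.

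The oocyte gene Nlrp5 rose at PD15, and most oocyte markers had a higher mean without being called. Nlrp5, at chr7:23385889-23441922 on the plus strand, encodes MATER, a part of the subcortical maternal complex that the oocyte stores for the early embryo. It was at 109, 78.7 and 84.5 FPKM at PD14 and at 153, 144 and 162 FPKM at PD15. The lowest PD15 library was above the highest PD14 library, and the mean was 1.69-fold higher (log2 change 0.76 ± 0.13 SE, adjusted p = 0.0368, limma, with calls in 3 of the 9 fits without 1 library). At PD16 it was at 92.5 ± 9.55 FPKM. Its promoter is shown for the homeobox factor NOBOX of the oocyte, with capitals for TAATTG or TAATTA on both strands, in the RefSeq window chr7:23385639-23385938 of GRCm38.p6 (plus strand).
Nlrp5: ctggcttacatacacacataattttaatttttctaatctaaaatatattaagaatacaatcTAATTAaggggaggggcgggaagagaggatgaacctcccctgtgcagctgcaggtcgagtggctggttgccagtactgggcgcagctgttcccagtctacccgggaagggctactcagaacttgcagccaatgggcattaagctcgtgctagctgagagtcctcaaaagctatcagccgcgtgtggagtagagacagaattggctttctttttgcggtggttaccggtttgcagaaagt
The Nlrp5 window holds 1 match, and 12.4% of the 32851 windows hold at least 1. Among the 12 of the 15 largest rises with a window, Mbd3l2 is the other gene with such a match.

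Of the 36 oocyte markers, all tested, 32 had a higher mean at PD15 and 4 a lower one, against 50.7% higher over protein-coding genes. In 14 of 36 the libraries lay wholly apart with PD15 above, and in 0 with PD15 below, while 10.1% of protein-coding genes lay wholly above. The median log2 change of the list was 0.20, against 0.00 for protein-coding genes. Nlrp5 was the 1 call in the list, beside 0.249% of protein-coding genes called higher. The zona pellucida genes Zp1, Zp2 and Zp3 had log2 changes of 0.20, 0.25 and 0.20, and the growth factor genes Gdf9 and Bmp15 of 0.11 and 0.39. The early oocyte transcription factor genes Sohlh1, Figla and Nobox had -0.27, -0.07 and -0.02, Sohlh1 being the lowest of the list. The summed level of the 36 markers was 2909, 2398 and 3020 FPKM at PD14 and 3209, 3082 and 3340 FPKM at PD15. The days do not overlap in this sum, and PD14 replicate 2 stands lowest. Without that library 27 of 36 were higher and the median was 0.11, and without any other library of PD14 or PD15, 31 to 34 were higher. At PD16 the sum was 2321 to 2480 FPKM, below all PD15 libraries and overlapping PD14 through PD14 replicate 2.

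Obox7, Mbd3l2 and C87414, which are in none of the lists, were also called. Obox7, of the oocyte-specific homeobox family, rose from 1.77 ± 0.17 to 3.15 ± 0.32 FPKM (SD, n = 3, adjusted p = 0.0329). Mbd3l2, a protein related to methyl-CpG binding factors, rose from 1.71 ± 0.27 to 3.41 ± 0.32 FPKM (adjusted p = 0.0338). C87414 rose from 4.75 ± 0.55 to 9.07 ± 0.83 FPKM (adjusted p = 0.0368). Obox and Mbd3l genes have near-identical copies, and their values depend on how fragments were shared among the copies. Obox7 and Mbd3l2 remained at 3.47 ± 0.29 and 3.18 ± 0.47 FPKM at PD16, when Nlrp5 was back at its PD14 level.

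The remaining rises were smaller, and they included genes of transcription factors. Mycn, a MYC family transcription factor of growing cells, was at 16.0, 19.3 and 17.8 FPKM at PD14 and at 29.5, 28.9 and 23.0 FPKM at PD15. The days did not overlap, and the log2 change was 0.59 ± 0.10 SE (adjusted p = 0.0396, limma). Hey2, a Notch target repressor, rose from 12.6 ± 0.80 to 17.9 ± 1.03 FPKM, and Sox18, an endothelial transcription factor, from 35.4 ± 1.84 to 49.5 ± 4.55 FPKM (adjusted p = 0.0305 and 0.0349). Zfp40, a zinc finger protein, rose by 0.50 on the log2 scale, and Csrp2bp, a histone acetyltransferase subunit, by 0.42. Kbtbd8, a ubiquitin ligase adaptor, rose by 0.61, Dnajb14, a J-domain cochaperone of the ER membrane, by 0.44, and Fam98a by 0.42. Nell1, a secreted protein, rose by 0.63 and Plekhh1 by 0.60. Mgme1, a nuclease of mitochondrial DNA upkeep, rose by 0.44. The predicted genes Gm6768 and Gm5065 rose by 0.54 and 0.46. Plekhh1, Mgme1 and Gm5065 overlap Pigh, Snx5 and Nlrp2 on the other strand, and the library kit does not mark strand. Mycn, Hey2, Zfp40 and Mgme1 stood at PD16 about where they stood at PD15, with PD16 means of 27.2, 18.1, 11.3 and 10.6 FPKM beside PD15 means of 27.1, 17.9, 11.1 and 10.7 FPKM. The calls of this paragraph held in 1 to 4 of the 9 fits without 1 library, in 1 for Mycn, Csrp2bp, Dnajb14 and Gm6768. Csrp2bp was called in 3 of the 11 other alternatives.

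Pcna-ps2, Eno1b and Tpm3 were among the 15 largest falls, and each has a closely related gene in the tables. Pcna-ps2, a copy of the replication clamp gene Pcna listed as protein-coding, was at 18.1, 11.5 and 25.8 FPKM at PD14 and at 2.97, 2.74 and 2.82 FPKM at PD15. It was 6.49-fold lower at PD15 (log2 change -2.27 ± 0.37 SE, adjusted p = 0.0368, limma), and at PD16 it spread from 8.57 to 28.4 FPKM. Pcna itself differed the other way, with 68.7, 70.2 and 74.0 FPKM at PD14 and 93.3, 92.9 and 107 FPKM at PD15 (log2 change 0.46 ± 0.11 SE, adjusted p = 0.107). Eno1b, a copy of the glycolytic enolase gene Eno1, was at 12.1, 15.1 and 15.1 FPKM at PD14 and at 5.95, 5.24 and 5.57 FPKM at PD15. This was 2.52-fold lower and called in every fit (log2 change -1.19 ± 0.10 SE, adjusted p = 0.00448), while Eno1 was at 36.9 to 43.3 and at 37.8 to 40.2 FPKM (log2 change -0.03 ± 0.10 SE). Tpm3, a tropomyosin of the actin cytoskeleton, was at 25.1, 25.4 and 18.9 FPKM at PD14 and at 12.7, 12.6 and 10.9 FPKM at PD15 (log2 change -0.88 ± 0.11 SE, adjusted p = 0.0151). Its copy Tpm3-rs7 was at 41.5 to 60.5 FPKM and then at 68.3 to 76.5 FPKM (log2 change 0.52 ± 0.12 SE, adjusted p = 0.0935). For Pcna-ps2 and Tpm3 the gene and its copy thus differed in opposite directions between the days, and how fragments were shared between such copies is not given in the sources used here. AC133103.6, AC125149.4 and AC149090.1 lie on scaffolds outside the assembled chromosomes, and were lower by 2.23, 1.83 and 0.96 on the log2 scale. Pcna-ps2 was called in 3 of the 9 fits without 1 library, Tpm3 in 7, AC133103.6 and AC149090.1 in 1 each.

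Retsat, Plin1, Akr1b10 and Bpifb4 were among the other falls. Retsat, at chr6:72598475-72608425 on the plus strand, encodes retinol saturase, an enzyme of retinoid and lipid metabolism. It was at 13.1, 10.1 and 13.2 FPKM at PD14 and at 3.34, 3.35 and 4.86 FPKM at PD15, 3.15-fold lower with no overlap (log2 change -1.44 ± 0.16 SE, adjusted p = 0.012, limma). Plin1, the coat protein of lipid droplets, fell from 6.97 ± 0.70 to 4.23 ± 0.11 FPKM (adjusted p = 0.0371), and Akr1b10, an aldo-keto reductase, from 7.03 ± 0.49 to 4.99 ± 0.32 FPKM (adjusted p = 0.0395). Adipoq, Lep and other markers of fat tissue were below 1 FPKM in all 6 libraries for 13 of 16 genes. Of the 3 tested, Lpl had a log2 change of -0.02 and Pparg, which the ovary also expresses, of 0.33, with mean levels of 7.51 FPKM at PD14 and 9.74 FPKM at PD15 and all PD15 libraries above all PD14 libraries. Neither was called, and the part of fat cells in the fall of Plin1 was not tested. Bpifb4, a secreted protein of the lipid-binding BPI fold, was at 22.9, 22.1 and 22.4 FPKM at PD14 and at 11.2, 9.61 and 11.4 FPKM at PD15. The PD14 values are close to each other and all far above those of PD15 (2.09-fold lower, adjusted p = 0.0136). Retsat and Bpifb4 were still low at PD16, at 5.54 ± 1.11 and 10.5 ± 2.09 FPKM, and their calls held in 6 of the 9 fits without 1 library. The call of Plin1 held in 2 of these fits and that of Akr1b10 in 1.

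Trim15, an antiviral ubiquitin ligase of the TRIM family, was at 2.75, 2.98 and 2.33 FPKM at PD14 and at 0.541, 0.279 and 1.21 FPKM at PD15 (adjusted p = 0.0338, limma). It was above 1 FPKM on the mean at PD14 alone, and its call was lost with no filter on low values. The uncharacterised gene 1110032F04Rik, which overlaps Gm17641 on the other strand, was at 22.4 ± 4.39 FPKM at PD14, 11.1 ± 0.71 FPKM at PD15 and 22.4 ± 4.77 FPKM at PD16 (adjusted p = 0.0371). 1110032F04Rik and Pcna-ps2 were thus low on PD15 alone.

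Receptor genes Adra2a and Acvrl1 were among the falls. Adra2a, the alpha-2A adrenergic receptor, was at 5.08, 4.68 and 4.28 FPKM at PD14 and at 2.39, 2.90 and 2.47 FPKM at PD15, 1.81-fold lower (adjusted p = 0.0252, limma), and at 2.60 ± 0.28 FPKM at PD16. Acvrl1, the type I receptor of BMP9 and BMP10 in endothelium, fell by 0.34 on the log2 scale, and it overlaps Gm16031 on the other strand. Rps6ka1, the kinase RSK1 downstream of ERK, fell by 0.43, and Pkdcc, a secreted tyrosine kinase, from 54.5 ± 1.95 to 36.8 ± 4.17 FPKM (adjusted p = 0.0349). Ngef, Rgl3 and Rasl11a, regulators or members of the small GTPase families, fell by 0.59, 0.49 and 0.48, and Cdc42ep4, an effector of Cdc42, by 0.32. Lrrc32, which holds latent TGF-beta at the cell surface, fell by 0.41, and Sema6c, a semaphorin, by 0.39. Pcdh8, a protocadherin, was at 2.23 ± 0.36 FPKM at PD14 and 0.84 ± 0.13 FPKM at PD15 (call lost with no filter on low values), and Serp2, of the ER stress-associated protein family, at 4.64 ± 0.30 and 2.12 ± 0.67 FPKM. Rgl3, Lrrc32, Sema6c and Acvrl1 were called in none of the 9 fits without 1 library.

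The antiproliferative factors Btg2 and Tob1, which belong to 1 family, both fell. Btg2 was at 7.45, 6.73 and 7.12 FPKM at PD14 and at 5.16, 5.38 and 4.88 FPKM at PD15 (log2 change -0.40 ± 0.07 SE, adjusted p = 0.0486, limma). Tob1 was at 21.4, 20.0 and 20.6 FPKM at PD14 and at 14.0, 15.6 and 16.4 FPKM at PD15 (log2 change -0.41 ± 0.06 SE, adjusted p = 0.0338). In both genes the days were apart by more than the spread of a day. Cited2, a transcriptional coregulator, fell from 35.6 ± 4.06 to 24.1 ± 1.12 FPKM, and Foxl1, a forkhead factor of mesenchyme, from 1.56 ± 0.13 to 0.63 ± 0.10 FPKM, a call that was lost with no filter on low values. Rprml, Lgi2 and Klhl23 fell by 0.65, 0.66 and 0.45 on the log2 scale, Rprml with a call lost in the same way. Ppp1r14a, the CPI-17 inhibitor of myosin phosphatase in smooth muscle, fell by 0.51. Fam46a fell by 0.48, and the trafficking proteins Ap5s1 and Snf8 by 0.31 and 0.29. Tulp2 and C77080 fell by 0.58 and 0.43, and both overlap genes of the other strand. Btg2 was called in 1 of the 9 fits without 1 library and Tob1 in 3, and Fam46a and Snf8 in none.

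**Figure D3:**
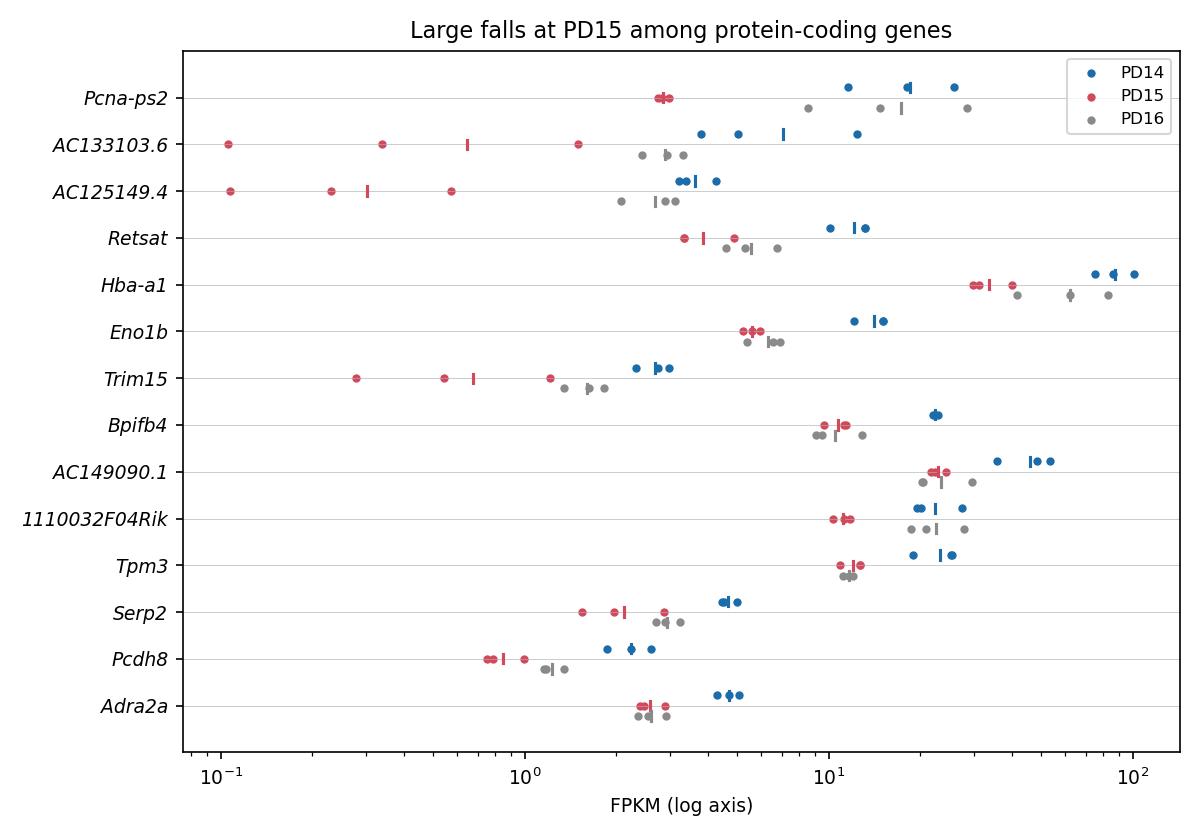
FPKM (horizontal log axis) of 14 protein-coding genes with large falls, in each of the 9 libraries. Points are libraries of PD14 (blue), PD15 (red) and PD16 (grey), and short bars are the mean of a day. All PD15 points lie to the left of the PD14 points. At PD16 Eno1b, Bpifb4, Tpm3 and Adra2a stay near PD15, and the 1110032F04Rik mean is at that of PD14.

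Globin genes were lower at PD15. All 6 tested genes of the red blood cell list had a lower mean at PD15, with a median log2 change of -0.97, while over all 11 matched members, with no filter on low values, 8 were lower and the median was -0.04. Hba-a2 and Alas2 passed the filter through PD14 alone. Hba-a1, an alpha-globin gene, was at 74.9, 86.0 and 101 FPKM at PD14 and at 29.8, 31.2 and 40.1 FPKM at PD15. It was 2.59-fold lower and was called (log2 change -1.35 ± 0.22 SE, adjusted p = 0.0373, limma, 2 of 9 fits without 1 library). The beta-globin gene Hbb-bs was at 24.2, 36.3 and 29.1 FPKM and then at 13.5, 13.9 and 18.6 FPKM (log2 change -0.91 ± 0.21 SE, adjusted p = 0.0891). Alas2, the haem synthesis enzyme of red cell precursors, had a log2 change of -0.64 ± 0.18 SE, and Gata1, their transcription factor, of -0.02 ± 0.12 SE. Hba-a2, a near-identical copy of Hba-a1, was at 0.551, 4.53 and 7.14 FPKM at PD14 and at 0.825, 1.57 and 0.313 FPKM at PD15. The summed level of the 11 matched markers was 108, 138 and 150 FPKM at PD14, 49.6, 52.4 and 65.8 FPKM at PD15 and 62.7 to 118 FPKM at PD16. Leaving out 1 library gave medians from -1.14 to -0.77 and 0 or 1 of 6 genes higher. The part of blood content in other differences was not tested.

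Markers of steroidogenic cells stood lower at PD15 while the progesterone-inactivating enzyme rose. Of the 18 tested steroid synthesis genes, 13 had a lower and 5 a higher mean at PD15, and the median log2 change was -0.16. In 9 of 18 the libraries lay wholly apart with PD15 below, against 11.1% of protein-coding genes, and in 1, Akr1c18, with PD15 above. Cyp11a1, which makes pregnenolone from cholesterol, was at 50.8, 48.4 and 41.2 FPKM at PD14 and at 20.6, 20.2 and 34.7 FPKM at PD15. Its libraries did not overlap, but the PD15 spread was wide and the gene was not called (log2 change -0.91 ± 0.33 SE, adjusted p = 0.24, limma). Cyp19a1, the aromatase that makes oestrogen in granulosa cells, was at 6.62, 3.77 and 4.95 FPKM and then at 2.84, 2.47 and 3.51 FPKM (log2 change -0.62 ± 0.17 SE, adjusted p = 0.147). Cyp17a1 of theca cells had a log2 change of -0.41 ± 0.22 SE and Hsd3b1 of -0.48 ± 0.22 SE, and Star, the cholesterol carrier of mitochondria, of 0.21 ± 0.24 SE. Akr1c18 was the 1 call of the list, beside 0.249% of protein-coding genes called higher. With 1 library left out, 4 to 6 of the 18 were higher and the median stayed between -0.18 and -0.14.

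The theca and interstitial list, which shares genes with it, had 13 of 16 lower and a median of -0.16 (-0.24 without PD15 replicate 2), with 6 of 16 wholly below (11.1% of protein-coding genes) and no call. Its summed level was 2686, 2025 and 2372 FPKM at PD14 and 1510, 1601 and 2160 FPKM at PD15. The days overlap in this sum through PD14 replicate 2 and PD15 replicate 3. The cholesterol synthesis and uptake list had 22 of 27 lower with a median of -0.11 (-0.07 without PD15 replicate 3), 6 of 27 wholly below (11.1% of protein-coding genes) and no call.

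**Figure D4:**
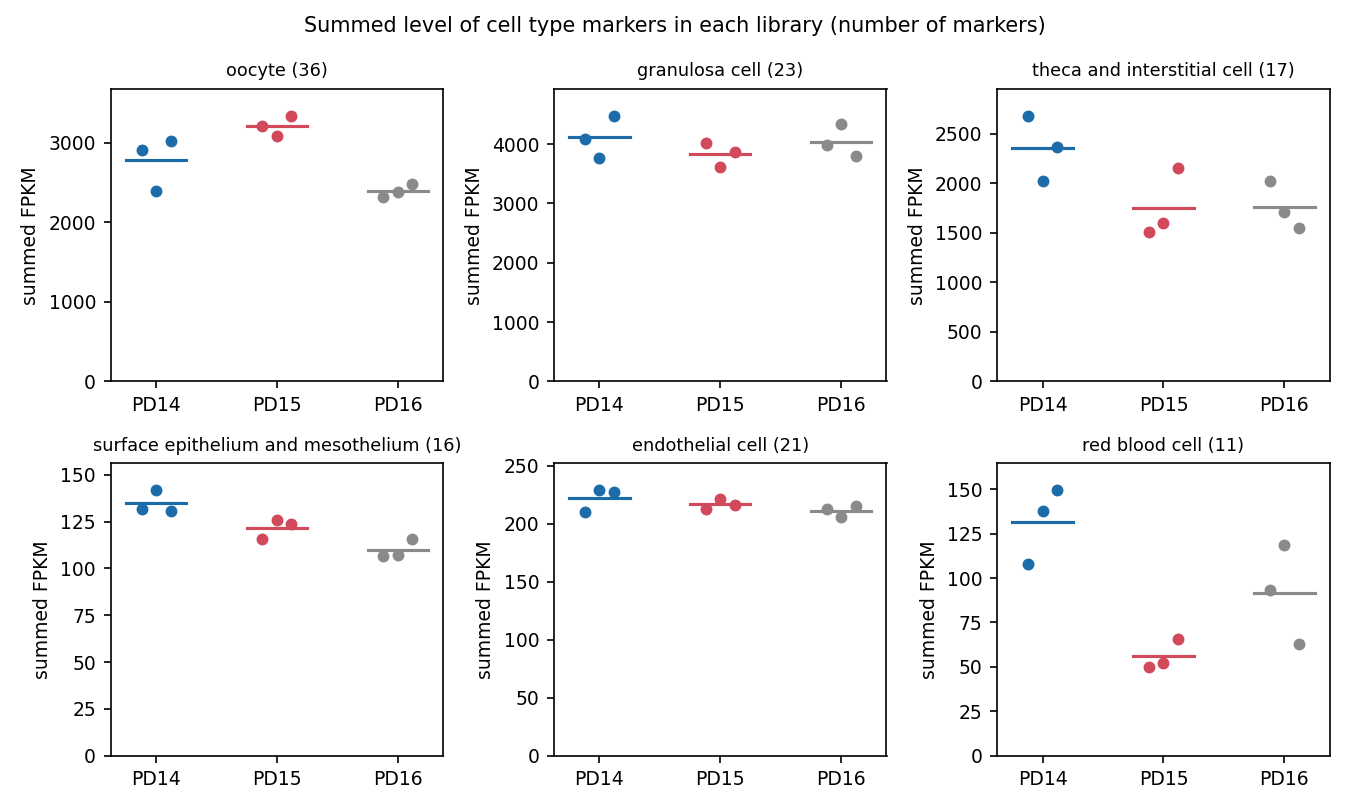
Summed FPKM of the markers of 6 cell types in each library (vertical axes from 0, number of markers in brackets), with bars for the mean of a day. The oocyte sum is highest at PD15 and the red blood cell sum highest at PD14, each without overlap between PD14 and PD15, and the theca and interstitial sums overlap between these days.

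Granulosa cell markers differed in both directions. Of 23 tested, 9 had a higher and 14 a lower mean, with a median of -0.07 (-0.04 without PD14 replicate 3). In 5 of 23 the libraries lay wholly above and in 3 wholly below, against 10.1% and 11.1% of protein-coding genes. Ihh was the 1 call, beside 0.249% of protein-coding genes called higher. Amh, the anti-Mullerian hormone of growing follicles, was at 186, 175 and 168 FPKM at PD14 and at 261, 243 and 222 FPKM at PD15. The days did not overlap, and the gene missed the threshold by little (log2 change 0.45 ± 0.08 SE, adjusted p = 0.0517, limma). Foxl2, the transcription factor that keeps granulosa identity, was at 134 to 150 FPKM and then at 157 to 183 FPKM (log2 change 0.27 ± 0.09 SE). Fshr, the receptor of follicle-stimulating hormone, was at 11.6 to 16.0 and at 12.3 to 13.2 FPKM (log2 change -0.13 ± 0.13 SE, adjusted p = 0.686). Inhba, a subunit of activin and inhibin, was the lowest of the list at 122, 53.9 and 85.5 FPKM and then at 34.4, 40.5 and 57.1 FPKM (log2 change -0.92 ± 0.27 SE, adjusted p = 0.163). The 2 days overlap in Inhba and in the summed level of the list (3771 to 4481 FPKM at PD14, 3615 to 4018 FPKM at PD15).

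Among 34 secreted growth factors and binding proteins, 12 had a higher and 22 a lower mean. Each direction held 1 call, beside 0.249% of protein-coding genes called higher and 0.322% called lower. The libraries lay wholly above in 4 of 34 and wholly below in 9 of 34, against 10.1% and 11.1% of protein-coding genes. Ihh rose, and Rspo1, an enhancer of Wnt signalling that the surface epithelium also makes, fell. Rspo1 was at 6.38, 6.96 and 7.37 FPKM at PD14 and at 4.07, 4.66 and 4.08 FPKM at PD15. All PD15 libraries were below all PD14 libraries (log2 change -0.58 ± 0.07 SE, adjusted p = 0.0158, limma, 7 of 9 fits without 1 library), and at PD16 the level was 4.02 ± 0.21 FPKM. Other surface epithelium markers, Krt8 and Krt18, had log2 changes of -0.23 and -0.21, and 8 of the 14 tested were lower, 5 of them wholly below (11.1% of protein-coding genes). The summed level of these markers was 131 to 142 FPKM at PD14 and 115 to 126 FPKM at PD15, and its part in the fall of Rspo1 was not tested. Grem1, an inhibitor of BMP signals, had the lowest change of the growth factor list, at 7.48, 12.3 and 9.66 FPKM and then at 2.60, 4.01 and 5.64 FPKM, but was not called (log2 change -1.11 ± 0.30 SE, adjusted p = 0.141). Nppc, which encodes C-type natriuretic peptide, was at 29.0, 21.6 and 30.6 FPKM at PD14 and at 18.6, 18.7 and 18.5 FPKM at PD15. Its PD15 values are nearly alike and below all of PD14 (log2 change -0.50 ± 0.13 SE, adjusted p = 0.121). Npr2, its receptor, was at 19.0 to 24.2 and at 19.3 to 27.4 FPKM (log2 change 0.04 ± 0.13 SE). Of 33 hormone and growth factor receptors, 14 were higher and 19 lower with no call, and Prlr, the prolactin receptor, was lowest at -0.47.

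Of 78 tested genes in the lists of junctions, ion transport, aquaporins and fluid proteins, Nectin1 and Aqp12 were called, beside 0.571% called over protein-coding genes, and 18 had an unadjusted p under 0.05 (limma), beside 14.4%. The tight junction gene Cldn4 was at 7.46, 6.22 and 7.0 FPKM at PD14 and at 8.63, 8.17 and 7.65 FPKM at PD15. Its days did not overlap, but the difference was not called (log2 change 0.21 ± 0.08 SE, 95% interval 0.03 to 0.40, adjusted p = 0.259, limma). Of 20 tight junction genes, 7 were higher and 13 lower, with a median of -0.06 (-0.10 without PD14 replicate 3) and no call. In 2 of 20 the libraries lay wholly above and in 6 of 20 wholly below, against 10.1% and 11.1% of protein-coding genes. Cldn3 was the lowest at 2.62, 2.01 and 2.26 FPKM and then 0.686, 1.40 and 1.08 FPKM (log2 change -0.69 ± 0.17 SE), and Jam2 the highest at 23.8 to 28.3 and 34.0 to 35.7 FPKM (log2 change 0.42 ± 0.09 SE). Of 17 gap and adherens junction genes, 12 were higher, and Nectin1, an adherens junction adhesion molecule, was called. It was at 7.12, 7.54 and 6.76 FPKM at PD14 and at 9.55, 9.65 and 9.42 FPKM at PD15 (log2 change 0.37 ± 0.06 SE, adjusted p = 0.0329, 4 of 9 fits without 1 library), with no overlap, while its relative Nectin2 had -0.24 ± 0.07.

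Of 21 ion pumps, cotransporters and exchangers, 8 were higher and 13 lower with no call and a median of -0.06 (0.02 without PD14 replicate 2, when 11 of 21 were higher), from the potassium chloride cotransporter Slc12a7 at -0.31 ± 0.06 (adjusted p = 0.0542, limma) to the sodium potassium chloride cotransporter Slc12a2 at 0.20 ± 0.08. Only 4 of the 11 aquaporin genes were tested. Aqp2 was at 0.922, 0.760 and 0.728 FPKM at PD14 and at 2.39, 0.178 and 0.762 FPKM at PD15, where PD15 replicates 1 and 2 lie on either side of all PD14 values (log2 change 0.09 ± 0.42 SE, 95% interval -0.86 to 1.04). Aqp12 was called, from 1.65, 1.29 and 1.44 FPKM to 2.89, 2.43 and 2.69 FPKM with no overlap (log2 change 0.58 ± 0.10 SE, adjusted p = 0.0368, 1 of 9 fits without 1 library). Aqp1, the most abundant of the 4, was at 14.4 to 14.7 and at 11.6 to 14.8 FPKM. Hyaluronan and follicular fluid proteins had 6 of 16 higher and 10 lower with no call, and 8 higher and 15 lower with no filter on low values. The extremes were Itih3 at 0.42 ± 0.13 and decorin (Dcn) at -0.28 ± 0.18. Itih3, with means of 0.58 FPKM at PD14 and 1.12 FPKM at PD15, passed the filter through PD15 alone.

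Growth-related lists leaned to higher values, with no call in any of them. DNA replication had 39 of 44 higher, a median of 0.10 and 13 of 44 wholly above (10.1% of protein-coding genes), with Pcna at the top. Its summed level was 833, 852 and 871 FPKM at PD14 and 981, 963 and 926 FPKM at PD15, without overlap, and 38 to 40 genes were higher with any 1 library left out. Cell cycle and mitosis genes had 32 of 40 higher, a median of 0.09 and 7 of 40 wholly above, led by Nusap1 at 0.22 ± 0.10. Their summed level overlapped (659 to 709 FPKM at PD14, 677 to 791 FPKM at PD15). The lean of this list depended on PD15 replicate 2, without which 24 of 40 were higher and the median was 0.02. ER folding and stress response genes had 20 of 27 higher with a median of 0.08 and 8 wholly above, from Sdf2l1 at 0.40 ± 0.13 down to the amino acid stress gene Asns at -0.36 ± 0.10. Vesicle traffic genes had 27 of 36 higher with a median of 0.05, but 20 of 36 and 0.02 without PD15 replicate 3. In this list 3 of 36 lay wholly above (8.33%, against 10.1% of protein-coding genes) and 2 wholly below. Cytosolic ribosomal proteins had 55 of 76 higher with a median of 0.07, and 4 of 76 lay wholly above (5.26%) and 0 wholly below. Their count was 26 of 76 with a median of -0.04 without PD15 replicate 3, and 64 of 76 with 0.15 without PD14 replicate 3. The mTOR pathway had 24 of 37 higher with a median of 0.04, but 21 of 37 and 0.0076 without PD15 replicate 3. Of these genes 2 of 37 lay wholly above (5.41%) and 3 wholly below (8.11%). Mtor itself was at 9.93 to 10.6 and 9.80 to 11.7 FPKM (log2 change 0.06 ± 0.08 SE). Ddit4, a stress-induced inhibitor of mTOR, was the lowest of that list at 57.2, 48.9 and 53.8 FPKM and then 39.3, 40.9 and 43.6 FPKM (log2 change -0.36 ± 0.09 SE, adjusted p = 0.101).

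**Figure D5:**
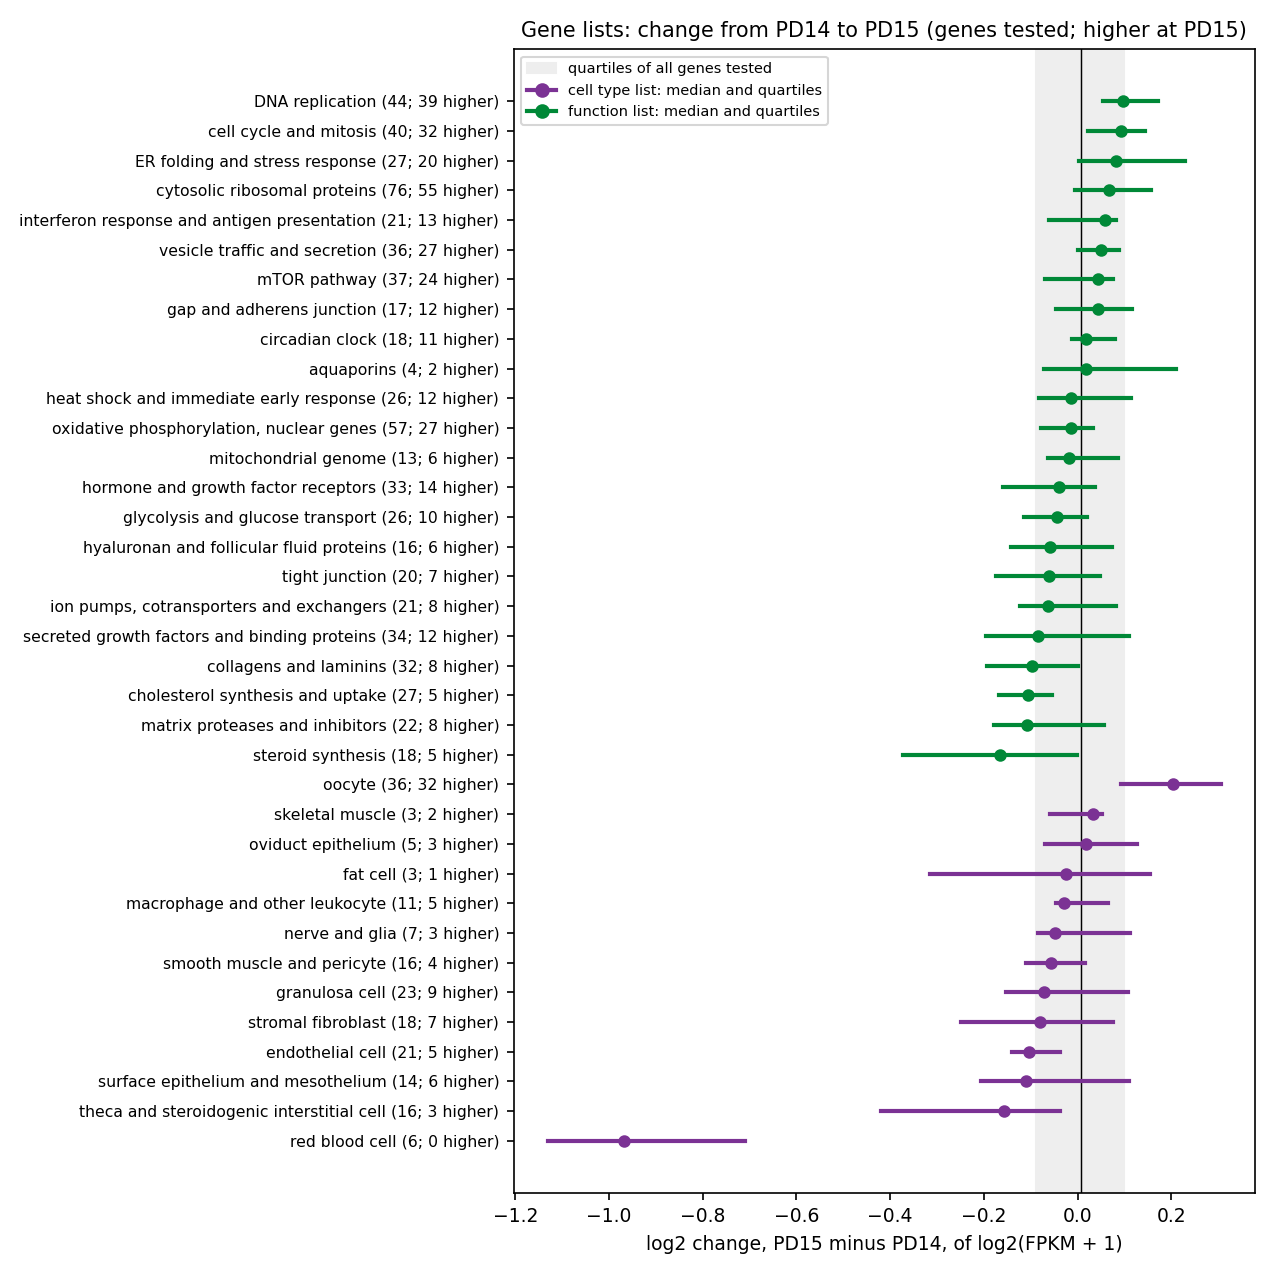
Median (point) and quartiles (bar) of the log2 change from PD14 to PD15 for 23 function lists (green) and 13 cell type lists (purple), with the number of genes tested and of those higher at PD15. The grey band and black line are the quartiles and median of all genes tested. The oocyte list is highest at 0.20 and the red blood cell list lowest at -0.97.

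Matrix genes leaned the other way. Of 32 collagens, laminins and related proteins, 24 had a lower mean at PD15 with a median of -0.10 and no call, and 6 of 32 lay wholly below, against 11.1% of protein-coding genes. The median was -0.04 without PD14 replicate 2, when 12 of 32 were higher, and -0.17 without PD14 replicate 3. Lamc3, a laminin chain, was among the 8 with a higher mean, at 11.8 to 14.2 and then 15.6 to 17.6 FPKM (log2 change 0.31 ± 0.08 SE). Matrix proteases and inhibitors had 14 of 22 lower, from Adamts4 at -0.28 ± 0.09 to the urokinase gene Plau at 0.23 ± 0.12. Endothelial markers had 16 of 21 lower with a median of -0.10 (-0.06 without PD15 replicate 1), while Sox18 of the same list rose. The defining endothelial genes Pecam1, Cdh5 and Kdr had log2 changes of -0.12, -0.07 and -0.04, and the summed level overlapped (211 to 229 and 213 to 222 FPKM). Stromal fibroblast and smooth muscle markers had 11 of 18 and 12 of 16 lower with no call. The smooth muscle count turned on single libraries, with 9 of 16 higher without PD15 replicate 3 and 1 of 16 higher without PD15 replicate 1. Rgs5, a pericyte gene, was the lowest of the latter at 19.6, 22 and 21.6 FPKM and then 10.4, 13.3 and 15.5 FPKM (log2 change -0.66 ± 0.12 SE, adjusted p = 0.0537).

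Of the 96 tested genes of the energy lists, 0 were called (limma), beside 0.571% of protein-coding genes, and 9 had an unadjusted p under 0.05, beside 14.4% of protein-coding genes. Nuclear genes of oxidative phosphorylation had 27 of 57 higher and 30 lower, and those of the mitochondrial genome 6 of 13 higher, with medians of -0.01 and -0.02. These counts turned on single libraries. Without PD15 replicate 3 they were 8 of 57 and 1 of 13 higher, with medians of -0.10 and -0.08. Without PD14 replicate 2, 11 of 57 nuclear genes were higher, and without PD14 replicate 3, PD15 replicate 1 or PD15 replicate 2, 33 or 34 of 57 were. Glycolysis genes had 10 of 26 higher, from the neural aldolase Aldoc at -0.47 ± 0.11 (adjusted p = 0.1, limma) to the pyruvate dehydrogenase kinase Pdk1 at 0.46 ± 0.14. The heat shock and immediate early list had 12 of 26 higher, with 5 wholly above and 2 wholly below (10.1% and 11.1% of protein-coding genes). Btg2 was its 1 call, beside 0.322% of protein-coding genes called lower. The chaperone Hspa8 was highest, at 225 to 266 and then 295 to 374 FPKM (log2 change 0.45 ± 0.12 SE). The circadian clock list had 11 of 18 higher with no call, and 8 of 18 without PD14 replicate 1 or PD15 replicate 2. Per1 was at 4.39 to 5.29 and then 6.54 to 7.28 FPKM (log2 change 0.46 ± 0.09 SE, adjusted p = 0.0729), and Dbp had -0.34 ± 0.18.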

How the data were processed

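RNA sequencing of 9 ovary libraries (PD14, PD15 and PD16, 3 each) was used. Libraries were made with the NEBNext Ultra kit, which does not mark strand. The submitters' processing notes name HISAT2 2.0.5 and mm10, and the counting tool and annotation are not given in the sources used here. The authors deposited FPKM, 1 table per library. Depth came from the FPKM step of 1 fragment over GENCODE M21 exon lengths, with 95.9% to 96.4% of low values whole within 0.05 (up to 6 fragments). No 2 libraries were identical.

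Genes with a mean FPKM above 1 on PD14 or PD15 were analysed as log2(FPKM + 1), which understates the change of low genes. All 9 libraries entered 1 limma model of day means with an intensity trend, with Benjamini-Hochberg adjustment over all genes and a threshold of 0.05 (R 4.3.3, limma 3.58.1, Python 3.11.15). Genes were named as the 15 largest called protein-coding rises and falls, the other called protein-coding genes, and for 23 function and 13 cell type lists the called and extreme members, with the first 3 markers of cell types and 9 genes that the study follows. Some genes that this rule names are not reported here. Other list members were picked after their values were seen. The members and lists were chosen with earlier results of these data known. Of 926 list symbols, 923 matched by symbol. Coordinates are those of GENCODE M21 (GRCm38). On simulated data for PD15 against PD14, the fit recovered 53.5%, 94.0% and 99.5% of 200 genes changed by 0.5, 1 and 2 on the log2 scale, over 15156, 15155 and 15136 genes tested. The simulated noise was independent for each gene and library, so it held no effect shared by the genes of a library. Changed genes were drawn from those with a mean log2(FPKM + 1) above 1, and the lower of these were raised. The 20 alternatives covered pseudocount, filter, scaling, model, block and single libraries left out. PD16 libraries help set the variance behind each p-value, and PD16 levels are given only as side values, since its comparisons share these libraries.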

Additional observations from a re-analysis of the deposited data

How the results depend on the processing

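The count of calls (52 higher, 53 lower) depended on the model: 12 and 16 without a filter on low values, 34 and 40 at a mean FPKM above 5, 21 and 25 with the 6 libraries alone, and 90 and 96 with array weights. With the replicate number as a block they were 11 and 15. Same-numbered deviations of PD14 and PD15 correlated at 0.01, 0.12 and 0.16, and those of either day with PD16 at -0.21 to 0.03. Differently numbered libraries were not compared, so whether the numbers pair the samples was not tested. Leaving out 1 library gave 1 to 46 higher and 2 to 47 lower calls, and the cause was not tested. Other pseudocounts, scalings and trend settings gave 44 to 53 and 47 to 60. Genes whose libraries did not overlap (1588 higher, 1575 lower) numbered 1002 and 1003 at a mean FPKM above 5 and 2377 lower without a filter, both from the number of genes tested. With 1 library left out they ranged from 2163 to 2704 higher and 2179 to 2563 lower, since 5 libraries overlap less often than 6.

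The 71 protein-coding calls kept their direction in every fit that tested them. For the fits without 1 library this was fixed in advance, since the PD14 and PD15 libraries of these genes lay wholly apart. Apart from the fits without 1 library, 10 were called in all alternatives that tested them. Of genes not called, some turned when 1 library was left out. Uqcrc1 ranged from -0.73 to 0.18 (turned without PD14 replicate 3) and Npr2 from -0.099 to 0.14 (-0.060 without PD14 replicate 3). Without PD15 replicate 1, mt-Co2 was at -0.11 (range to 0.30), Myh11 at -0.058 (to 0.17), Mtor at -0.0036 (to 0.11), and Npr2 at its lowest. Gata1 ranged from -0.11 to 0.053, with 0.010 without PD14 replicate 1, 0.053 without PD14 replicate 2 and 0.012 without PD15 replicate 3. Without PD14 replicate 2, Col1a1 was at 0.0065 (range from -0.25) and Kdr at 0.031 (from -0.095). Aqp2 was at -0.096 with a pseudocount of 0.1. The cause of these turns was not tested.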

Other observations

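Some genes took values that split the libraries of a day. Rpl35a was at 6.84, 31.3 and 7.77 FPKM in the PD14 libraries, at 34.1, 35.6 and 40.6 FPKM in the PD15 libraries and at 9.17, 9.57 and 6.14 FPKM in the PD16 libraries, with PD14 replicate 2 at the PD15 level. Rpl34 was at 39.9 FPKM in PD14 replicate 1 and between 4.50 and 5.61 FPKM in the other 8 libraries. Uqcrc1 was at 6.30 FPKM in PD14 replicate 3 and between 1.06 and 2.80 FPKM in the others. Srp54a, of the signal recognition particle, was at 4.20, 0.628 and 0.648 FPKM at PD14, at 2.67, 3.99 and 1.98 FPKM at PD15 and at 0.637 to 0.727 FPKM at PD16. None of these 4 genes was called with all libraries, with log2 changes of 1.53, -0.97, -0.37 and 0.66 (adjusted p = 0.162, 0.473, 0.722 and 0.473, limma, in the order Rpl35a, Rpl34, Uqcrc1, Srp54a). Without PD14 replicate 2 Rpl35a was called at 2.18 (adjusted p = 0.00448), and without PD14 replicate 1 Srp54a was called at 1.21 (adjusted p = 0.0492). Rpl34 and Uqcrc1 were called in none of the 9 fits without 1 library, with ranges of -1.41 to -0.078 and -0.73 to 0.18.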
